A study of Mus musculus with 3 samples.

Results

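Conventional CD4 T cells of metastasis-bearing mouse brains are described here, 174 barcodes of the 12908 in the series (1.35%). They were chosen by measured values: at least 500 genes, at most 15% mitochondrial UMIs (unique molecular identifiers, counted transcripts), at most 20000 UMIs, and a top hashtag holding at least 70% of the mouse hashtag counts. At least 2 of Cd3d, Cd3e, Cd3g, Trac and Trbc2 had a UMI, the CD4 antibody tag was at least 2 times the CD8a tag, Cd8a, Cd8b1, Foxp3 and Ikzf2 had no UMI, and Lyz2 had at most 3. The first filters left 4871 barcodes of 1 hashtag (singlets), of which 1104 passed the T cell genes. Of 475 that also passed both coreceptor rules, 117 had a Foxp3 UMI, 173 had an Ikzf2 UMI without Foxp3, and 11 had over 3 Lyz2 UMIs, which left the 174.

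The mice were female C57Bl/6, 2 to 3 months old, and had brain metastases grown from E0771 cells, a mammary carcinoma line of the mouse, injected into the carotid artery. They were given anti-VISTA + anti-PD-L1 (Dual TX) every other day, from 3 days after the injection of the carcinoma cells, or were left without it. Brains were perfused with PBS and digested, immune cells were enriched on a Percoll gradient, and each of 8 suspensions was stained with 35 tagged antibodies and with its own hashtag before all were pooled in 1 capture. The deposited samples are the transcript, antibody and hashtag libraries of the same cells, and no barcode was repeated in the matrix (0 of 12908). Their labels give 1, 2 and 3 brain hemispheres per biological sample for these libraries of the same cells, so the number pooled in each hashtag sample cannot be told. Which hashtags marked treated brains could not be read from the labels, and treated and untreated brains were not compared. Nor do these sources state whether hashtags stand for different animals. The p-values below therefore reflect spread among hashtag samples, which may be technical.

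CD4 T cells recognise peptides on MHC class II molecules through the T cell receptor, with CD4 as coreceptor. They act mostly by helping other cells, through CD40 ligand and through cytokines by which the Th1, Th2, Th17 and follicular helper subsets are defined. Regulatory T cells are a CD4 lineage that depends on the factor Foxp3, and CD8 T cells recognise MHC class I and kill. In the brain, CD4 T cells are scarce outside inflammation, infection or tumour growth.

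The choice of barcodes rested on antibody tags, so the tags that set the classes apart and those used in the results are shown, each 15 bases read 5′ to 3′ as in the deposited feature table. In the CD8a tag, capitals mark the 12 bases that differ from the CD4 tag at the same position. Any pair among the antibody tags and mouse hashtags differed at 5 or more bases.
CD4: aacaagacccttgag
CD8a: TacCCgTAATAGCGT
CD3: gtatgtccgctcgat
PD-1: gaaagtcaaagcact
CD25: accatgagacacagt
CD103: ttcattagcccgctg
CD49d: cgcttggacgcttaa
CD38: cgtatccgtctccta
CD86: ctggatttgtgtatc
hashtag of sample 5: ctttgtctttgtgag
hashtag of sample 7: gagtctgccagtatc
hashtag of sample 8: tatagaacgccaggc

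The CD4 T cells were set beside 296 CD8 T cells and 105 regulatory T cells. The CD8 class mirrored the rule, with the CD8a tag at least 2 times the CD4 tag and Cd4, Foxp3 and Ikzf2 at 0 UMIs. The regulatory class kept the CD4 rule but required a Foxp3 UMI, with no rule on Ikzf2. CD4 T cells carried a median of 223 CD4 tags and 1 CD8a tag, CD8 T cells 3 and 80, and regulatory T cells 228 and 2. Cd4 transcripts, which the rule did not use for this class, were found in 51.1% of CD4 T cells. Cd3e, an invariant chain of the T cell receptor complex, and Trac, the constant gene of the alpha chain, both among the 5 T cell genes of the rule, were found in 77.0% and 85.6%. Cd4 was found in 1.19% of macrophage barcodes of a median 9646 UMIs, against a median of 3933 UMIs in the CD4 T cells. The CD4 T cells had a median of 1511 genes, and in all 770371 UMIs and 344282 antibody tags. CD8 and regulatory T cells were deeper, with medians of 5380 and 5664 UMIs.

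For 20 of the 174 barcodes the markers went against the name. These had fewer than 20 CD4 tags (median 3.5) and none had a Cd4 UMI, while Cd4 was found in 57.8% of the other 154. Trdc, the constant gene of the delta receptor chain, had a UMI in 35.0% of the 20 and in 0.649% of the 154. Ncr1, an activating receptor of NK cells, had a UMI in 40.0% of the 20 and in 0% of the 154, and their median CD3 tags were 14.5 and 52.5. The tag ratio lies close to these barcodes: 10 just inside it had a median of 4.5 CD4 tags and 16 just outside it had 2.5, with no Cd4 UMI in either. Likewise, 11 barcodes with 2 of the T cell genes just passed and 136 with 1 did not, with medians of 4 and 3 CD4 tags. A stricter set of 142 CD4 T cells, chosen after the data were seen, requires 20 CD4 tags and fewer than 10 UMIs of 3 MHC class II genes and of each marker list for B, macrophage, dendritic, microglial, neutrophil, endothelial and carcinoma cells. Its CD8 and regulatory counterparts were filtered alike. The leading counts are given with both sets.

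**Figure D1:**
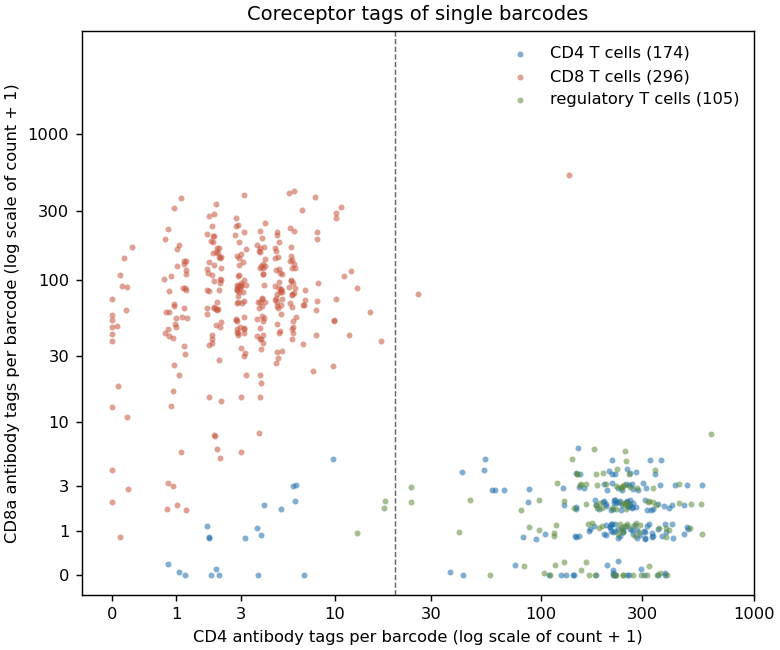
CD4 antibody tags (x axis) and CD8a antibody tags (y axis) of each barcode, on a log scale of the count + 1 with jitter, for 174 CD4, 296 CD8 and 105 regulatory T cells; the dashed line stands at 20 CD4 tags. CD4 and regulatory T cells lie together at right, and 20 CD4 T cells lie left of the line, at the low end of both tags.

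CD4 T cells made up 0%, 1.05%, 2.88%, 0.84%, 4.78%, 1.83%, 4.21% and 4.12% of singlets in hashtag samples 1 to 8 (median 2.35%). The exact Clopper-Pearson 95% interval was 3.73% to 6.02% in sample 5 (68 of 1423), 2.86% to 5.96% in sample 7 (30 of 712) and 3.06% to 5.43% in sample 8 (48 of 1164). It was 0.95% to 3.18% in sample 6 (12 of 655), and 0 of 35 in sample 1 allows a share of up to 8.57% by a limit of 3 counts (the exact interval, drawn in the plot of shares, ends at 10.0%). Samples 5, 7 and 8 thus held 146 of the 174 barcodes and the highest shares, and sample 2, at 0.287% to 2.67% (4 of 381), lay below each of their intervals. Among T cell barcodes the median share was 11.4%, and the highest was 24.4% in sample 3 (11 of 45). CD4 T cells were 34.3% of CD4 and CD8 T cells together at the median of 7 samples, from 16.7% in sample 6 to 57.9% in sample 3. Regulatory T cells were 35.3% of CD4 and regulatory T cells together at the median, from 30.2% in sample 7 to 69.2% in sample 2 (9 against 4 barcodes). That leaves out the 173 barcodes with an Ikzf2 UMI without Foxp3, so it is no share of the whole lineage. Samples 5, 7 and 8 held 59, 26 and 55 of those, beside 37, 13 and 24 regulatory T cells. Intervals cover counting error only, and shares depend on the gates, among them the limit of 20000 UMIs, which alone left 5567 of 12334 barcodes.

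**Figure D2:**
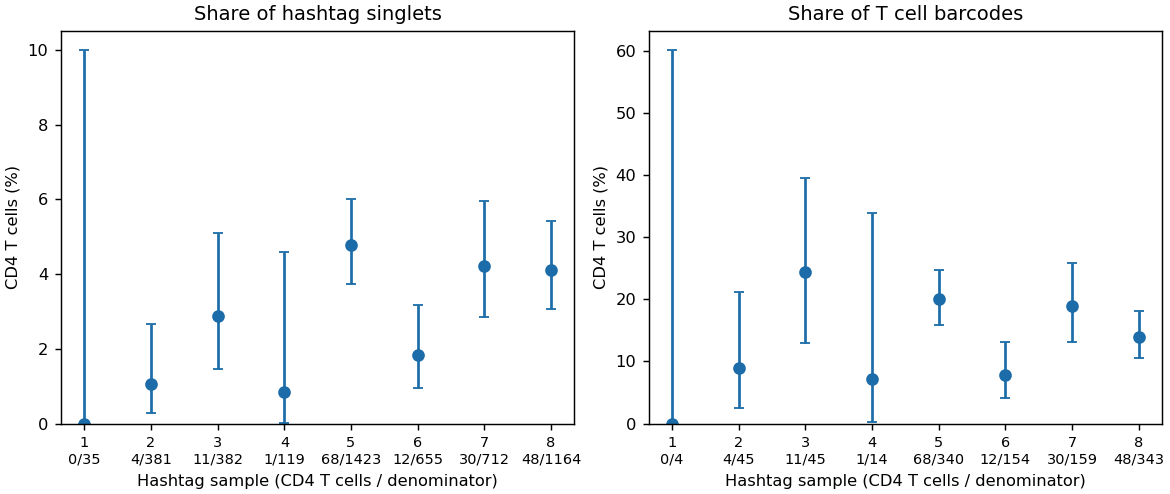
CD4 T cells in percent of singlets (left) and of T cell barcodes (right) for hashtag samples 1 to 8, with exact 95% intervals and the counts under each sample. Samples 5, 7 and 8 lie between 4.12% and 4.78% of singlets, above the other 5.

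RNA of other cell types differed between the samples that hold most CD4 T cells, in CPM, the UMIs of the summed barcodes scaled to a common total. The 4 neutrophil markers summed to 0, 17.1 and 1961 CPM in samples 5, 7 and 8, and to 5.25 CPM in the stricter set. They lay in few barcodes: S100a8, S100a9, Retnlg and Csf3r had a UMI in 3, 5, 2 and 4 of the 174. The 3 endothelial markers summed to 394, 34.2 and 63.4 CPM, and all 8 macrophage or monocyte markers were found, at 369, 427 and 177 CPM against 20354 CPM in macrophage barcodes. Of 4 carcinoma markers Krt18, Epcam and Krt19 were at 0 and Krt8 had a UMI. In the gamma-delta list 5 of 5 measured markers had a UMI and summed to 48.8, 539 and 31.7 CPM, and all 5 NK markers did, at 168, 171 and 122 CPM. Both lists were at 5.25 and 21 CPM in the stricter set, and at 1151 and 1414 CPM in the 20 barcodes with few CD4 tags. MHC class II RNA was also concentrated in few barcodes: 5 had 10 or more UMIs of class II genes, with a median of 873 I-A/I-E tags (the class II antibody).

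Against CD8 T cells, CD4 T cells had more Cd40lg, Maf, Tnfrsf4, S1pr1 and Il7r, and less of 12 of 14 cytotoxic and 5 of 8 cell cycle genes tested. The 2 classes were summed per hashtag sample and compared within samples 5, 7 and 8, the ones with 20 or more barcodes of each, by edgeR's quasi-likelihood test with Benjamini-Hochberg adjustment over 3650 genes. Of these, 112 passed an adjusted p of 0.05 (3.07% of genes tested), 62 higher (1.7%) and 50 lower (1.37%) in CD4 T cells. In the stricter set 189 passed, 112 higher and 77 lower, and 93 of the 112 genes called first were called there in the same direction. The count rested on samples 5 and 8: without sample 5 it was 14, without sample 8 it was 9, and without sample 7 it was 95. Depth differed between the classes, with the medians above, and 58 genes passed after each barcode was thinned to 2000 UMIs.

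The 8 largest rises among the named genes were of mixed function, with Cd40lg and Izumo1r from the helper lineage list, of which 2 of 8 tested rose. Cd40lg, the ligand by which helper T cells signal to B cells, dendritic cells and macrophages, stood at 76.3, 85.5 and 122 CPM in CD4 T cells of samples 5, 7 and 8, against 0, 0 and 1.55 CPM in CD8 T cells. No sample overlapped: 62 UMIs lay in 44 of 146 CD4 T cells and 1 UMI in 214 CD8 T cells, a ratio of 130 (95% counting interval 22.5 to 5226; adjusted p = 0.000362). Maf, a factor of several helper subsets, had 259, 274 and 159 CPM against 20.4, 51.5 and 20.1 CPM (log2 difference 3.02 ± 0.28 SE, adjusted p = 0.000362). Tnfrsf4 (OX40), a costimulatory receptor, had 186, 325 and 326 CPM against 31.6, 9.36 and 68.1 CPM (log2 difference 2.72 ± 0.33 SE, adjusted p = 0.0022). The same order held in each of the 3 samples for both genes. Izumo1r, the folate receptor 4 of helper and regulatory cells, differed by 3.19 on the log2 scale, Ramp3, part of receptors for the peptide adrenomedullin, by 3.69, and Tbc1d4, a regulator of vesicle traffic, by 3.05. Icos, a costimulatory receptor used in help to B cells, had 531, 889 and 575 CPM against 310, 403 and 314 CPM, a log2 difference of 0.89. Of 9 genes of the regulatory list tested here, 3 rose (Tnfrsf4, Tnfrsf18 and Izumo1r) and Tnfrsf9 fell. Of the 16 genes of activation and costimulation tested, 4 rose (Cd40lg, Icos, Tnfrsf4, Tnfrsf18) and 1 fell, Tnfrsf9 (4-1BB), which fell in 2 of 3 samples. Socs2, Trib2, Tmem176a and Tmem176b also rose, by 2.92, 2.78, 2.40 and 2.76, but Tmem176b had its UMIs in 10 of 146 CD4 T cells and none of the 4 was tested in the stricter set.

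Of 11 naive and central memory genes tested, 4 rose and none fell: S1pr1, the receptor that draws lymphocytes out of tissue towards blood and lymph, Il7r, the interleukin 7 receptor, Klf2 and Tcf7. S1pr1 had 226, 162 and 240 CPM in CD4 T cells, against 79.9, 51.5 and 38.7 CPM in CD8 T cells (log2 difference 1.90 ± 0.27 SE, adjusted p = 0.00539). Il7r had 604, 436 and 639 CPM against 279, 140 and 68.1 CPM (log2 difference 1.92 ± 0.36 SE, adjusted p = 0.0195). Tcf7, a factor of naive and memory T cells, had 210, 214 and 213 CPM against 117, 60.9 and 54.1 CPM. The lowest CD4 value of each of these genes lay above the highest CD8 value. Ccr7, a homing receptor of that list, did not pass, at 45.8, 214 and 72.5 CPM against 199, 112 and 51 CPM. The median log2 difference of the 11 genes was 0.29, against -0.01 over all genes tested. The stricter set called the same 4 higher, and Bcl2 lower.

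Cytotoxic genes were lower in CD4 T cells. Of 14 tested, 12 fell and none rose (median log2 difference -1.89), and 13 of 14 fell in the stricter set. Ccl5, a chemokine of effector T cells, had 2257, 3616 and 2405 CPM, against 9545, 10560 and 9603 CPM in CD8 T cells (log2 difference -1.91 ± 0.11 SE, adjusted p = 2.51e-05). Nkg7, a protein of cytotoxic granules, had 659, 1077 and 765 CPM against 2465, 2584 and 3748 CPM (log2 difference -1.87 ± 0.17 SE, adjusted p = 0.000362). The gap to CD8 T cells was wider than the spread between samples for both. Gzma, a granzyme, did not pass with all members, at 665, 1103 and 847 CPM against 587, 1208 and 1742 CPM. Its level in CD4 T cells depended on few barcodes: 512 of its 697 UMIs lay in the 20 barcodes with few CD4 tags, and its pooled level was 905 CPM in all CD4 T cells and 320 CPM in the stricter set. Xcl1 had 146 of 149 UMIs in the same 20 barcodes.

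Cell cycle genes and some inhibitory receptors were also lower. Of 8 cell cycle genes tested 5 fell and none rose, with Stmn1 at 30.5, 17.1 and 13.6 CPM against 171, 356 and 278 CPM in CD8 T cells (log2 difference -3.46 ± 0.35 SE, adjusted p = 0.000693) and Top2a at 30.5, 17.1 and 36.2 CPM against 125, 225 and 218 CPM. Pclaf, a factor of DNA replication, had 3 UMIs in CD4 and 198 in CD8 T cells, a ratio of 31.4 in favour of CD8 T cells (10.6 to 154), and Hist1h2ap, a histone gene, had a log2 difference of -3.37. Of 12 inhibitory receptors and their factors 3 fell, Lag3, Havcr2 (Tim-3) and Nr4a2, and none rose; with 10 barcodes a sum Ctla4 and Nt5e rose, and Nt5e did in the stricter set too. Lag3 had 12.2, 42.7 and 22.6 CPM against 113, 112 and 226 CPM (log2 difference -2.80 ± 0.36 SE, adjusted p = 0.00288). Pdcd1, which encodes PD-1, did not pass, at 94.6, 197 and 154 CPM against 139, 225 and 254 CPM. The largest fall of the comparison was Rgs16, a regulator of G protein signalling, at 3.05, 0 and 13.6 CPM against 160, 122 and 325 CPM. Klrc1 (NKG2A) and Ccl3 also fell, with log2 differences of -3.32 and -3.55, and Zbtb32 had 3 UMIs against 73 (ratio 11.6 in favour of CD8 T cells, 3.81 to 57.5). Ccl3 was at 120 CPM in CD4 T cells and 159 CPM in CD8 T cells of sample 7, much closer than in samples 5 and 8.

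Interferon-stimulated and immediate early genes were partly higher in CD4 T cells. Of 20 interferon-stimulated genes 3 rose (Oasl2, Ifi27l2a and Iigp1) and none fell, with a median log2 difference of 0.43, and 8 rose in the stricter set. Ifi27l2a was at 5473, 4565 and 4058 CPM against 2980, 3333 and 2936 CPM in CD8 T cells (log2 difference 0.56 ± 0.11 SE, adjusted p = 0.021). With 10 barcodes a sum, which adds sample 6, its adjusted p was 0.0725 and that of Cxcr3 was 0.143. Of 13 immediate early genes, which respond to stimulation and to tissue dissociation, Junb and Btg2 rose and none fell, and 8 rose in the stricter set. Junb had 2181, 2291 and 1956 CPM against 1363, 1152 and 1197 CPM. None of 14 genes of T cell receptor signalling and none of 9 of tissue residence passed, with median log2 differences of 0.07 and 0.51. Both with 10 barcodes a sum and in the stricter set, Cd5 of the first list and Rgs2 and Crem of the second rose, and Cxcr6 fell.

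**Figure D3:**
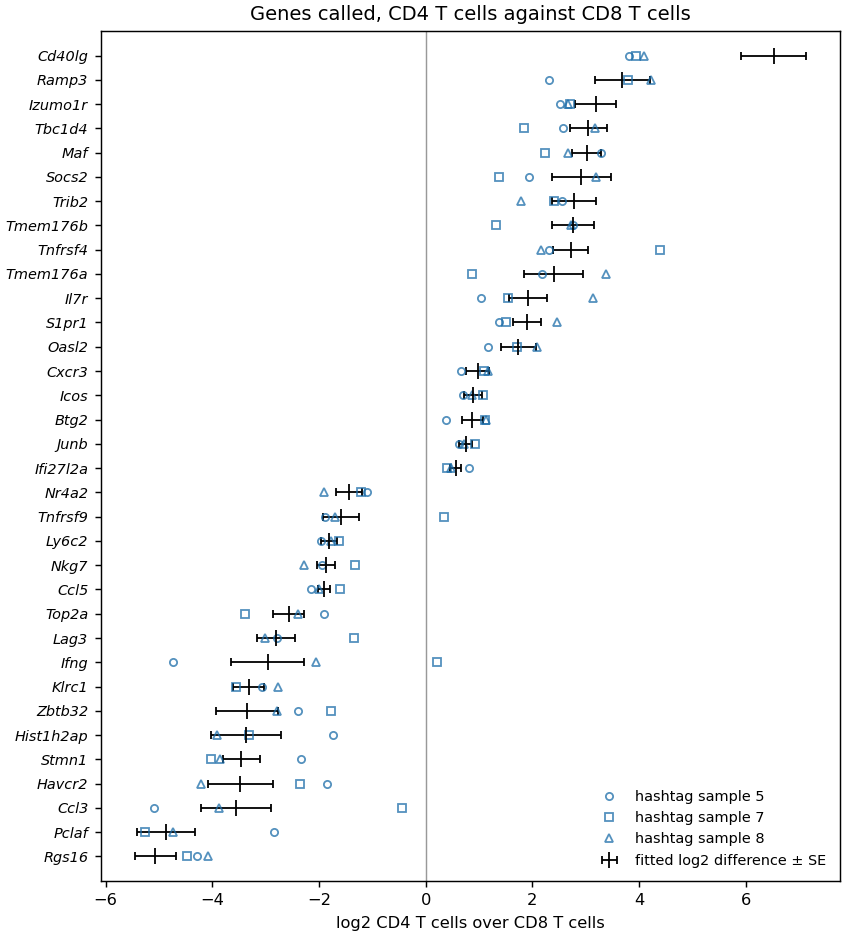
Log2 difference between CD4 and CD8 T cells (x axis) of the 34 named genes (y axis): ticks with bars are the fitted value ± SE and open symbols the ratios in hashtag samples 5, 7 and 8, these with 2 counts added, which draws genes of few UMIs such as Cd40lg towards 0. Ifng and Tnfrsf9 alone among these genes have a sample (7) on the other side of 0.

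Against regulatory T cells, CD4 T cells had less of 11 of 13 genes of the regulatory list, among them Tnfrsf4 and Ctla4, and more of S1pr1, Tcf7, Klf2, Cd40lg and Fasl, among others. Only samples 5 and 8 had 20 barcodes of each class, and 3341 genes were tested. In all 78 passed (2.33%), 37 higher (1.11%) and 41 lower (1.23%) in CD4 T cells. Sums of 10 or more barcodes brought in samples 6 and 7 and called 237 genes, 144 higher and 93 lower, and 291 with the stricter set, 169 higher and 122 lower. Of the 78 genes called first, 58 were called with 4 samples in the same direction. At a hashtag share of 90% in place of 70% only 3 passed, so the count of calls from 2 samples is unstable. Of the 31 named genes 21 were tested with 4 samples, where 20 kept their call, and that value is given beside some of them; the other 10 (Id3, Igfbp7, Gm2682, Cald1, Sidt1, Penk, Il10, Itgb8, Itgae and Ier5l) were not tested there. A Foxp3 UMI is found more readily in a deep barcode, and regulatory T cells were deeper; 134 genes passed after thinning to 2000 UMIs.

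The regulatory list was lower, which the split on Foxp3 bears on: it describes that choice and is no independent support. Of 13 tested 11 fell and none rose (median log2 difference -3.07). Tnfrsf4 had 186 and 326 CPM in CD4 T cells of samples 5 and 8, against 1940 and 1992 CPM in regulatory T cells (log2 difference -2.92 ± 0.23 SE, adjusted p = 0.00163; -2.90 in 4 samples). Ctla4, an inhibitory receptor that competes for CD28 ligands, had 241 and 358 CPM against 957 and 1076 CPM (log2 difference -1.72 ± 0.22 SE; -1.44 in 4 samples). Both classes expressed these genes, and their samples did not overlap. Il2ra (CD25) had 6.1 and 54.3 CPM against 313 and 270 CPM (log2 difference -3.40; -3.48 in 4 samples). Tnfrsf18 (GITR) fell by 2.02 and Tnfrsf9 by 3.45, and Areg, a growth factor of tissue repair, had 58 and 77 CPM against 1266 and 338 CPM. Il10, the inhibitory cytokine, had 1 UMI in CD4 T cells and 57 in regulatory T cells (ratio 72 in favour of the regulatory class, 12.4 to 2895), and Penk, the enkephalin precursor, 1 and 146 (ratio 185, 32.6 to 7338), 37.0% of the 146 in 1 barcode. Itgb8 and Itgae, integrin chains, fell too, with 1 UMI against 27 (ratio 34.1, 5.62 to 1397) and 2 against 34 (ratio 21.5, 5.51 to 185), all in favour of the regulatory class. Ier5l had a log2 difference of -3.90.

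Genes higher than in regulatory T cells came from several lists: 3 of 10 naive and central memory genes, 3 of 11 cytotoxic genes (Fasl, Klrk1 and Gzma, with Gzmb lower), 2 of 8 chemokine receptors (S1pr1 and Gpr183, with Ccr7 lower) and 1 of 10 helper lineage genes (Cd40lg, with Izumo1r lower). Tcf7 had 210 and 213 CPM in CD4 T cells, against 22 and 24.1 CPM (log2 difference 3.24 ± 0.35 SE, adjusted p = 0.00646; 3.56 in 4 samples). S1pr1 had 226 and 240 CPM against 26.5 and 38.6 CPM (log2 difference 2.90 ± 0.33 SE; 2.67 in 4 samples). Klf2, a factor that drives S1pr1, rose as well, so that 3 of 10 naive and central memory genes rose, and Ccr7 fell (median log2 difference 1.49 over the 10). With 4 samples 8 of 10 rose and none fell. The call on Ccr7 was lost in 4 samples (log2 difference -0.85, adjusted p = 0.215), whereas in the stricter set 6 of 6 tested memory genes rose, without Ccr7. Cd40lg had 76.3 and 122 CPM against 4.41 and 19.3 CPM (log2 difference 3.12 ± 0.53 SE; 3.75 in 4 samples). Gpr183, a receptor for oxysterols that guides lymphocytes, differed by 2.14, Itgb1, an integrin chain, by 1.49, and Fasl, the ligand of a death receptor, had 91.5 and 99.6 CPM against 13.2 and 0 CPM (52 UMIs against 3, ratio 13.7, 4.44 to 68.7). Gm2682 (ratio 10.3, 3.27 to 52) and Sidt1 (ratio 10, 3.18 to 50.7) rose from counts of the same size. Some of the largest rises came from few barcodes. Id3 was at least 21.1-fold higher (80 UMIs against 0, with a floor of 3 over the regulatory sums), but 72.5% of its UMIs, 62.0% of those of Igfbp7 and 51.3% of those of Cald1 lay in 1 barcode each, and Gzma again came largely from barcodes with few CD4 tags. Igfbp7 and Cald1 are also genes of vascular cells, whose markers were highest in sample 5 as given above. Their part in the result was not tested, and neither gene was tested in the stricter set.

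Among the rest, Gzmb had 174 and 118 CPM in CD4 T cells against 1041 and 487 CPM in regulatory T cells, Maf 259 and 159 CPM against 551 and 506 CPM, and Izumo1r 61 and 99.6 CPM against 287 and 299 CPM. All 3 fell, so Maf and Izumo1r lay between the regulatory and the CD8 classes. Of 8 cell cycle genes tested Stmn1 and Top2a fell, with 48.2% and 36.8% of their regulatory UMIs in 1 barcode. Itgav, an integrin chain that activates TGF-beta, fell by 2.21. No interferon-stimulated gene of 20 passed, with a median log2 difference of 0.01, and none of 14 immediate early and 13 receptor signalling genes did. With 4 samples, 5 immediate early genes rose and 1 fell of 13, 2 interferon-stimulated genes fell of 19, and 2 receptor signalling genes rose of 12.

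**Figure D4:**
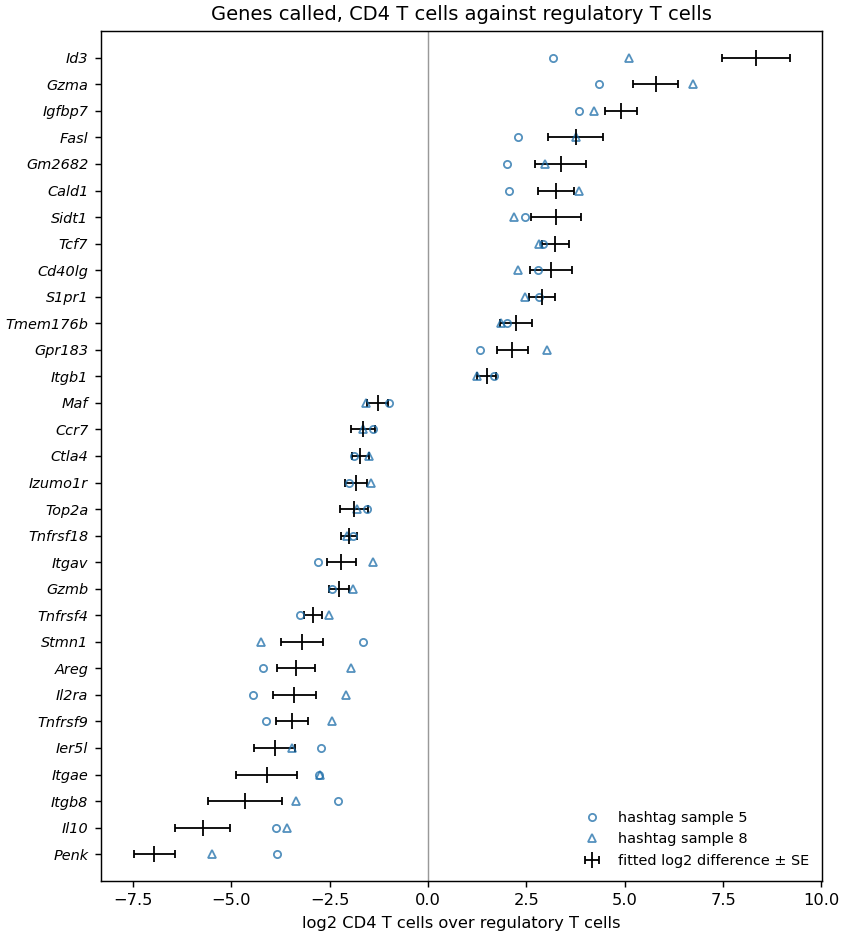
Log2 difference between CD4 and regulatory T cells (x axis) of the 31 named genes (y axis): ticks with bars are the fitted value ± SE, open symbols the ratios in hashtag samples 5 and 8 with 2 counts added. Both samples lie on the same side of 0 for every gene shown, which the choice of these genes required in part.

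Among helper subset genes, receptors and signalling genes of Th1 cells were found in the CD4 T cells of each of the 3 larger samples, while several subset factors and cytokines had few UMIs. Levels of each gene are CPM in samples 5, 7 and 8, without a test unless named, and the share of cells with a UMI is given after thinning to 2000 UMIs, which 164 of the 174 reached. Cxcr3, the receptor for interferon-induced chemokines, had 198, 214 and 177 CPM, against 119, 93.6 and 75.8 CPM in CD8 T cells (log2 difference 0.98 ± 0.21 SE, adjusted p = 0.0398). This edgeR call held in the stricter set (log2 difference 1.22, adjusted p = 0.00107). It was lost with sums of fewer barcodes (log2 difference 0.74, adjusted p = 0.143). Cxcr3 was found in 31.7% of thinned CD4, 19.1% of CD8 and 27.6% of regulatory T cells. Unthinned, the shares were 43.7%, 41.2% and 58.1%, so Cxcr3 was not particular to CD4 T cells. In thinned macrophage and carcinoma barcodes it was found in 0.557% and 0.147%. Stat4, which relays interleukin 12, had 201, 239 and 204 CPM and Il18r1 125, 145 and 145 CPM. Neither was particular to this class: thinned CD4, CD8 and regulatory T cells had Stat4 in 28.0%, 24.2% and 17.1%, and Il18r1 in 22.6%, 18.4% and 12.4%. Tbx21, the factor that defines Th1 cells, was sparse at 33.6, 17.1 and 27.2 CPM, with 21 UMIs in 18 cells. Ifng, the Th1 cytokine, had 51.9, 68.4 and 67.9 CPM, against 1480, 56.2 and 302 CPM in CD8 T cells. The CD4 levels of Ifng were thus alike in the 3 samples, and the CD8 levels were not: the fall passed (adjusted p = 0.049) but sample 7 went the other way, and 45.0% of the CD8 UMIs lay in 1 barcode. Ly6c2 fell against CD8 T cells, with 555, 496 and 294 CPM against 2095, 1489 and 1024 CPM.

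Genes of the other subsets were mixed, and several were scarce or rested on few cells. Maf of the Th2 list and Rora of the Th17 list were found in 36.6% and 28.7% of thinned CD4 T cells. The Th2 factor Gata3 was found in 14.6%, and the Th1 factor Tbx21 in 4.88%. Gata3, the factor of Th2 cells, had 82.4, 59.8 and 99.6 CPM, while Il4, Il5, Il13 and the Th2 receptor Ptgdr2 had no UMI in the 174 cells (0 of 174 cells allows up to 1.72% of cells with a UMI). Il17a, the Th17 cytokine, had 85 UMIs in 6 cells, 2 of them with few CD4 tags holding 35 of the UMIs, and none in sample 5. Rora, which is found in Th17 and also in other helper and regulatory cells, had 146, 299 and 317 CPM. Follicular helper genes differed among themselves. Icos was found in 65.9% of thinned CD4 T cells, but Bcl6, the factor of that subset, had 10 UMIs, Cxcr5, its homing receptor, 2, and Il21, its cytokine, 1. Of the other cytokines, Ltb, a lymphotoxin chain, was found in 70.1% of cells unthinned at 469 CPM, and Il2, the T cell growth factor, had 35 UMIs in 14 cells, 51.4% of them in 1 cell. Csf2, Il22, Il3 and Lif had no UMI.

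**Figure D5:**
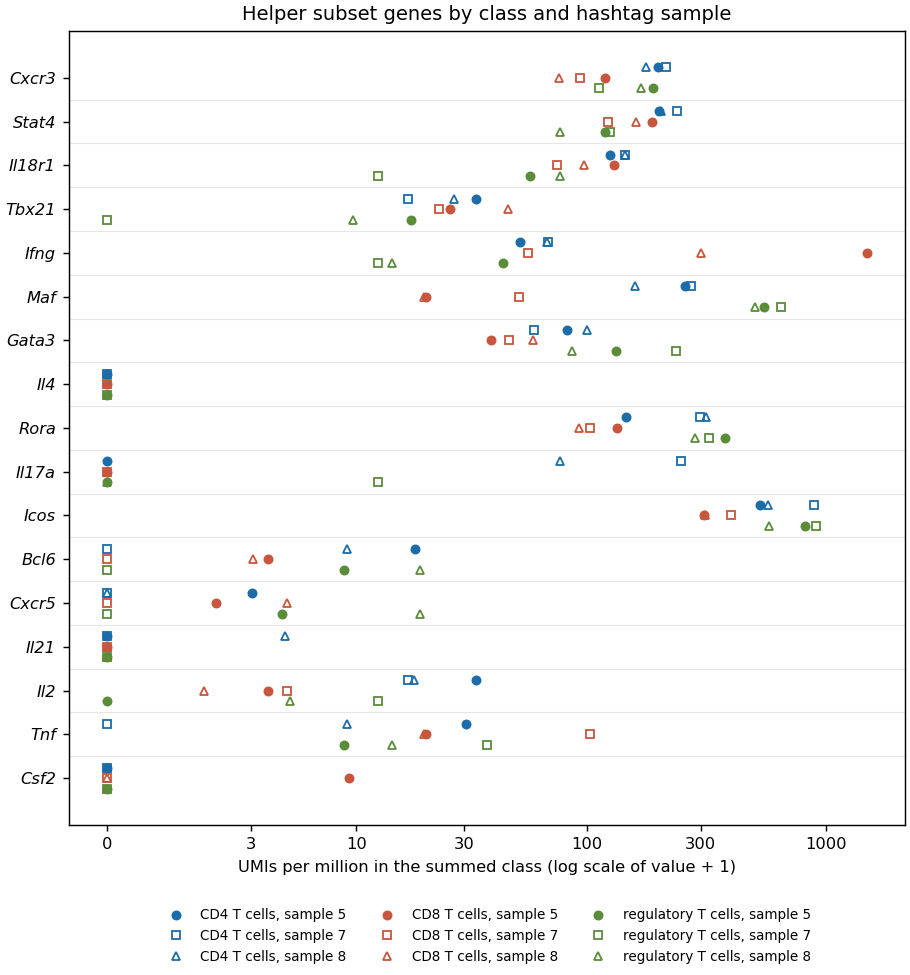
CPM (x axis, log scale of the value + 1) of 17 helper subset and cytokine genes (y axis) in the summed CD4, CD8 and regulatory T cells of hashtag samples 5, 7 and 8. The CD4 values of Cxcr3, Stat4, Il18r1, Maf, Rora and Icos lie above 100, and those of Il4 and Csf2 lie at 0.

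Receptors for inhibition and migration differed in how many cells they were found in. Ctla4 was found in 37.8% of thinned CD4 T cells, 32.8% of CD8 and 81.0% of regulatory T cells, and Pdcd1 in 18.3%, 32.8% and 15.2%. Unthinned, Pdcd1 was found in 28.2%, 52.4% and 45.7%, which turns the order of CD4 and regulatory T cells, so no order is read between them. Lag3, Havcr2 and Tigit had 15, 6 and 3 UMIs in the 174 CD4 T cells. Vsir, which encodes VISTA, had 116, 51.3 and 90.6 CPM in CD4 T cells, against 68.8, 98.3 and 77.3 CPM in CD8 T cells, with ranges that overlap. Other chemokine receptors found in each of these samples were Cxcr6, at 91.5, 291 and 199 CPM, Cxcr4, at 137, 188 and 104 CPM, and Ccr2, at 97.6, 137 and 172 CPM. Cd69, an early activation and residence marker, had 372, 462 and 299 CPM, and Itgae, the CD103 chain of resident cells, 6 UMIs in 3 cells.

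The antibody tags gave a second readout of the same barcodes, as shares of all tags but CD4 and CD8a. Paired over samples, an exact sign-flip test (two-sided) cannot go below p = 0.25 with 3 samples or p = 0.5 with 2, so no tag can pass, and sizes are given. Of 33 tags, 5 differed from CD8 T cells by a median of 0.5 or more on the log2 scale with the same direction in samples 5, 7 and 8. CD3 was higher, at 253, 258 and 379 per 10000 tags in CD4 T cells, against 163, 118 and 141 in CD8 T cells. CD86 was lower, at 72.5, 136 and 78.3 against 181, 346 and 300. CD38 was at 158, 111 and 118 against 165, 355 and 386, close in sample 5 and apart in samples 7 and 8. PD-1 was lower in each sample (median log2 difference -0.70), as was CD11c (-0.75), but in the stricter set PD-1 was higher by 0.04 in 1 sample. Per barcode, the median of PD-1 tags in CD4 T cells was 13 in sample 5, 5 in sample 7 and 3 in sample 8, and that of NK1.1 was 30, 11 and 7.

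Against regulatory T cells, 10 of 33 tags met that size in samples 5 and 8. CD25 stood at 8.6 and 13.2 per 10000 tags in CD4 T cells, against 44.8 and 91 in regulatory T cells (median log2 difference -2.53). CD103 stood at 9.39 and 30.3 against 44 and 154 (-2.25), with medians of 1 and 3 tags per barcode over all samples. Both tags follow the direction of their transcripts Il2ra and Itgae. CD49d, the integrin chain encoded by Itga4, was higher at 112 and 99.3 against 48.8 and 49.5 (1.1). With 4 samples its difference ran from 0.0955 in sample 7 (96.5 against 90.3) to 2.17 in sample 6. In the stricter set it ran from 1.05 to 2.21. Itga4 itself was not called with all members, and rose with 4 samples of the stricter set. Of 2 chains that pair with CD49d, Itgb1 rose in the RNA. The other, Itgb7, was found in fewer thinned CD4 than regulatory T cells (34.1% against 50.5%). PD-1 (-0.74) and CD38 (-0.70) were lower. Ly6C (0.56), CCR2 (0.68), CD64 (0.74) and Ly6G (0.94) were higher, but counted per cell the first 3 differed by 0.16, 0.30 and 0.45. The Ly6G difference was 0.07 in sample 5 and 1.81 in sample 8, the sample with 1961 CPM of neutrophil markers, whose part in it was not tested. The higher I-A/I-E share (1190 and 310 against 252 and 173) was not stable. With 4 samples its median difference was 0.28, and with 4 samples of the stricter set -0.07, both directions being present in each. The median barcode among CD4 T cells had 23 I-A/I-E tags in sample 5 and 13.5 in sample 8. The highest count in any CD4 T cell was 12768. CD90.1, CD335, CXCR4 and KLRG1 had a median of 0 tags in all 3 classes.

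The CD4 T cells were also split by a protein measurement. At the median share of PD-1 tags within each sample, 73 PD-1 tag-high and 73 PD-1 tag-low cells of samples 5, 7 and 8 were compared over 1648 genes. Of these 4 passed (0.243%), 1 higher (0.0607%) and 3 lower (0.182%) in the tag-high cells. Pdcd1, the transcript of the tagged protein, had 175, 364 and 301 CPM in PD-1 tag-high cells, against 17.9, 61.8 and 40.1 CPM in PD-1 tag-low cells (log2 difference 2.81 ± 0.36 SE, adjusted p = 0.00381), and differed by 2.16 in the stricter set. The other 3 were the class II genes H2-Eb1, H2-Ab1 and H2-Aa, with log2 differences of -4.52, -4.40 and -4.03. The PD-1 share is taken of all tags but CD4 and CD8a, the I-A/I-E tag among them. Many I-A/I-E tags thus lower a barcode's PD-1 share, so these 3 genes are not independent of the split. They sat in few cells: 60.2% of the H2-Ab1 UMIs of the tag-low cells lay in 1 barcode, none of the 3 was tested in the stricter set, and with tags counted per cell they turned to 1.96, 1.74 and 1.70. Without sample 5, 7 or 8 the calls numbered 6, 22 and 22. No other gene of the 19 lists passed with all members, while in the stricter set Ccl5 and Ifi27l2a rose and Jun fell. In simulated sums of this size, where other genes were changed by design, 5 unchanged genes were called. False calls pass more readily when many genes truly change, so this number cannot tell whether the 4 called here arose by chance.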

How the data were processed

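The deposited matrix holds whole-number counts of UMIs and tags per feature and barcode, made by the authors with Cell Ranger 3.1 and build mm10, per the submitters' processing notes. Seurat 3.1.1 is listed there too, and the gene annotation was not given in the sources used here. The members and gene lists were chosen with earlier results of these data known. From the counts, barcodes were assigned to the top hashtag, gated as described, summed per hashtag sample and class, and fitted with edgeR 4.0.16 (R 4.3.3; filterByExpr, TMM, quasi-likelihood test, hashtag sample as a block, Benjamini-Hochberg at 0.05), with gate genes left out of calls. The block rests on both classes coming from 1 suspension; deviations of same-numbered sums correlated at 0.0179, -0.0942 and 0.128 against CD8 T cells and at 0.108 against regulatory T cells. DESeq2 1.42.0 and Scrublet (scanpy 1.11.5), which marked 2 of the 174 barcodes, served as alternatives. Doublets were otherwise removed only by the hashtag share and the UMI limit. Named genes were, per comparison, the 8 largest rises and 8 largest falls among called genes of the same direction in every sample and at least 50 CPM in the higher class, plus for each list the 2 called members of smallest p in each direction. List genes given as levels follow the lists. Genes named beyond these rules (Pdcd1, Gzma, Ccr7 and Vsir, which did not pass, and members listed by name beside a count) were chosen after their values were seen. The fits were tested on simulated counts, where 95%, 93% and 100% of 4-fold changes were recovered in the comparisons with CD8 T cells, with regulatory T cells and by PD-1 tag, and 42%, 28% and 43% of 2-fold changes, with 1, 4 and 5 unchanged genes called. Apart from the changes made, the simulated counts had a common mean per gene and a smooth trend of dispersion. They had no differences between hashtag samples and no barcodes that held most UMIs of a gene. They therefore cannot show what share of changes is recovered in the real sums. Tag shares were compared with 0.5 added per 10000 tags. A further split of the CD4 T cells is not reported here.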

Additional observations from a re-analysis of the deposited data

Results flagged for a closer look

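In 104 groups of 4 to 10 hashtag samples, 8 values stood far from the others by Dixon's criterion, which chance alone exceeds in about 1 in 20 groups. In CD4 T cells of samples 5 to 8, the CD38 tag share was highest in sample 5, at 158 per 10000 tags. The I-A/I-E share was highest in sample 5, at 1190, with 200, 228 and 310 in samples 6, 7 and 8. The median barcode differed far less, with 23 I-A/I-E tags in sample 5, 18.5 in sample 7 and 13.5 in sample 8. The highest count in any CD4 T cell was 12768, and the part of that barcode in the share was not tested. The CD103 share was highest in sample 8, at 30.3. The highest CD103 count in any CD4 T cell was 159, beside a median of 1 and a 90th percentile of 3. The part of that barcode in the share was not tested. The CD90.1 share stood apart in sample 7, at 4.23, and the TMEM119 share was low in sample 6, at 6.76. In the log2 ratio of CD4 over regulatory T cells, sample 7 stood apart for CD90.1 at 1.80 and for CD103 at -4.22, and sample 5 for CD335 at -0.29. Outside the main measurement, the CD4 T cells held 208 counts of the 6 human hashtags, in 67 barcodes and 0.159% of their hashtag counts, against 0.106% in CD8 T cells and 0.212% over all barcodes. The 9 transgene features had 0 UMIs in the CD4 T cells and 2667 over all barcodes.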

How the results depend on the processing

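Beside 112 genes called against CD8 T cells, 290 were called without the filter on low counts, 56 by DESeq2, 173 with coreceptor RNA required, 58 after thinning and 189 in the stricter set, and 9 to 95 when 1 sample was left out. Beside 78 against regulatory T cells, the counts were 25 with RLE normalization, 301 without the filter, 26 by DESeq2, 237 with 10 barcodes a sum, 3 at a hashtag share of 90%, 26 at a tag ratio of 4, 28 without Scrublet doublets, 134 after thinning and 291 with 10 barcodes and the stricter set. Beside 4 for the PD-1 split, they were 43 without the filter, 2 without the replicate block, 1 by DESeq2, 1 with 5 barcodes a side, 2 at 10000 UMIs, 0 with Lyz2 at 0 (edgeR, 68 at an unadjusted p under 0.05), 15 with tags per cell, 2 between the outer groups of a split in 3, and 6 to 22 with 1 sample left out. With tags per cell the log2 differences of H2-Eb1, H2-Ab1 and H2-Aa turned to 1.96, 1.74 and 1.70. The cause of these changes was not tested.

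Without the replicate block the pairing of sums within a hashtag sample was ignored, and 135, 95 and 2 genes were called by edgeR in the 3 comparisons. Of 34 named genes against CD8 T cells, 32 kept their call with RLE, 24 with DESeq2 and 27 of 27 tested in the stricter set, but 9 of 32 without sample 5 and 8 of 34 without sample 8. Of 31 against regulatory T cells, 14 did with RLE, 13 with DESeq2, 14 at a tag ratio of 4, 15 of 30 without Scrublet doublets, 3 of 29 at a hashtag share of 90%, and 20 of 21 with 10 barcodes a sum. Counts of tags past the limit stayed within 1.5 times, at 5 to 6 against CD8 T cells and 7 to 12 against regulatory T cells, while single tags moved by more, as CD11c against CD8 T cells, at -2.09 in the stricter set and -0.75 with all members. Settings added after seeing the data were those with 20 coreceptor tags and the stricter set. Not run for lack of 2 samples were the regulatory comparison at 10000 UMIs, with Lyz2 at 0, in the stricter set at 20 barcodes, and with 1 sample left out. Genes of few UMIs per barcode are limited by depth, and 10 of the 174 CD4 T cells had under 2000 UMIs.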

Other observations

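The 173 barcodes that met both coreceptor rules and had an Ikzf2 UMI without Foxp3 fall outside the conventional and the regulatory class. They had a median of 5245 UMIs and 169 CD4 tags, and Cd4 was found in 36.4% of them. Ctla4 was found in 58.4%, Tnfrsf4 in 47.4% and Il2ra in 24.3%, beside Xcl1 in 41, Trdc in 26 and Ncr1 in 16 of the 173. The shares of Ctla4, Tnfrsf4 and Il2ra were 51.1%, 34.5% and 5.17% in CD4 T cells, which were less deep (median 3933 UMIs). In regulatory T cells they were 92.4%, 97.1% and 65.7%. The barcodes thus held genes of the regulatory list, of which Ctla4 and Tnfrsf4 were also common in CD4 T cells, and genes of innate-like lymphocytes. How the 2 kinds of gene divide among the barcodes was not tested.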
